A study of Mus musculus with 8 samples.

Results

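The cells described here came from libraries labelled RFP+ of the Tri-PyMT line, cultured mouse mammary tumour cells measured one by one with Drop-seq, in which droplets pair a cell with a barcoded bead. Members were all cells of the 2 RFP+ labelled libraries with at least 1000 counts, which gave 2968 of the 4000 RFP+ labelled cells and of the 7400 cells in the series. Library 1 contributed 1545 cells and library 2 contributed 1423. The line carries MMTV-PyMT, a viral oncogene under a promoter active in mammary epithelium, together with Fsp1-cre and the Rosa26mT/mG reporter, and these alleles are shared by every cell in the series. The labels give a primary metastatic breast tumor as the tissue, culture in DMEM with serum, and a fluorescence sort of the RFP+ fraction before capture. Cre was driven by the promoter of Fsp1, another name of S100a4, so a switch of colour reports the history of that promoter only. The labels do not say that the libraries came from separate cultures, and the 2 lanes of each library stood pooled in the table. The GFP+ labelled libraries enter only as the background for the reporter rows, and with 2 libraries of 1 population no test between groups was made, so library 2 served as the repeat of library 1.

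In the mT/mG reporter, a cell makes a membrane-bound red protein until Cre removes that cassette, after which it makes a green one. Carcinoma cells of this oncogene are epithelial, held together by keratin filaments and adhesion proteins such as Epcam. Epithelial-mesenchymal transition is the loss of such genes and the gain of cytoskeletal and matrix genes such as Vim, and cells can hold both at once. Within any cultured population, transcripts also differ between cells because cells stand at different points of the division cycle and carry different amounts of ribosomal, mitochondrial and stress-related RNA.

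The reporter rows went against the labels. In cells with at least 1000 counts, CUSTOM_GFP stood at 606 and 582 CPM (counts per 1000000, from counts summed over cells) in the RFP+ labelled libraries, and at 97.5 and 105 CPM in the GFP+ labelled ones. CUSTOM_RFP stood at 134 and 136 CPM in the RFP+ labelled libraries and at 2949 and 3093 CPM in the GFP+ labelled ones. The cells are therefore called RFP+ labelled throughout, and no direction is drawn from the sort. Depth was alike in both libraries, with medians of 1394 and 1440 counts and 893 and 911 genes per cell, and the deepest cells held 8540 and 10513 counts. The mitochondrially encoded share had medians of 0.462% and 0.466%, and 6 and 2 cells were above 5%. No barcode was shared between the member cells of the libraries, and 2 were shared among all 4000 cells.

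All 5 epithelial markers named for these cells were detected in both libraries. Krt18, a keratin of simple epithelia, stood at 991 CPM (exact 95% Poisson interval 954 to 1030) in library 1 and 1042 CPM (1002 to 1083) in library 2. Its partner Krt8 stood at 430 CPM (405 to 455) and 422 CPM (397 to 448). Epcam, an epithelial adhesion protein, stood at 365 CPM (342 to 389) and 391 CPM (367 to 417). Wfdc2, a secreted protease-inhibitor family protein, stood at 1056 CPM (1017 to 1095) and 1045 CPM (1005 to 1086). Cldn3, a tight junction protein, stood at 61.6 CPM (52.6 to 71.8) and 75.6 CPM (65.2 to 87.2). For all 5 genes the intervals, which cover counting error only, overlapped between libraries. The mesenchymal genes Vim, at 1920 and 1824 CPM, and S100a4, at 633 and 683 CPM, were detected in the same libraries. Per thinned cell of 1000 counts the mesenchymal list summed to 28.4 and 28.1 counts and the epithelial list to 5.35 and 5.49. These levels are not per length, so genes and lists are not ranked by them.

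Markers of other cell types could be examined in part, because many had no row in the table used here and were not analysed. Of 20 immune markers 10 had a row. They summed to 104 and 105 CPM, of which Cd14, which is not restricted to leukocytes, gave 63.1 and 50.7 CPM, and Csf1r and Lyz2 were at 0. Of 10 endothelial markers 6 had a row and summed to 0.374 and 2.41 CPM, with Pecam1, Esam and Cldn5 at 0. Of 11 fibroblast markers 7 had a row and summed to 13.4 and 9.65 CPM, with Col1a1 at 0. The erythroid marker Alas2 was at 0. A count of 0 allows a level of up to 1.12 CPM in library 1 and 1.21 CPM in library 2 (3 counts). At the limit of the rule, cells of 1000 to under 1100 counts gave five-marker sums of 2843 and 2950 CPM, and cells of 900 to under 1000 counts, just outside, gave 2815 and 2836 CPM. The mitochondrially encoded share was 0.878% and 0.881% just inside and 0.905% and 0.906% just outside.

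Outside ribosomal protein and mitochondrially encoded genes, the most abundant transcript was S100a6, a small calcium-binding protein, at 8011 and 8186 CPM. Actb, cytoplasmic actin, followed at 7704 and 7610 CPM. Next came Lgals1, a galactose-binding lectin, at 5659 and 5671 CPM, and the cytosolic chaperone Hsp90ab1 at 5693 and 5632 CPM. The nucleolar proteins Ncl, at 4704 and 4749 CPM, and Npm1, at 3981 and 3889 CPM, and the iron-storage chain Fth1, at 4599 and 4769 CPM, were of like level. Tpm1, an actin-binding tropomyosin, stood at 4036 and 4131 CPM. The row Gm26924 stood at 4366 and 4669 CPM, and no place is given for it here because the gene models used did not hold it. Ybx1, Ptma, H3f3b, Pabpc1, Gnb2l1 and Serbp1 completed the first 15, which together took 6.56% and 6.65% of all counts. The 83 ribosomal protein genes took 18.0% and 18.4%, and the mitochondrially encoded rows 0.613% and 0.573%. These are levels per count and not per length, so the order is one of counts only.

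Levels were close in the libraries. Across 1889 genes with a mean of at least 100 CPM, log2 CPM correlated at 0.995 between libraries, and the median absolute log2 difference was 0.07. Only Gm10260 was past 1.5-fold (0.0529% of genes), at 94.5 CPM in library 1 and 143 CPM in library 2, a fold of 1.51 with an exact 95% interval of 1.28 to 1.78 for counting error. It shares 68.3% of the 31-base words at its transcript end with another gene model, so its reads cannot be placed with confidence. It was named after its value was seen.

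Variation between cells was measured after every cell was thinned at random to 1000 counts, which gives every cell the same counting depth. Thinning does not remove differences that go with a cell's total. The measure was the variance of a gene's count across cells divided by its mean, which is near 1 when cells differ by counting alone. Its counting error was 0.036 in library 1 and 0.0375 in library 2 (SE). Of 3082 genes with a mean of at least 0.05 counts per thinned cell in both libraries, the median ratio was 1.05 in each, and 95% of genes lay below 1.19. A ratio of at least 1.3 was reached by 49 genes in library 1 (1.59%), by 39 in library 2 (1.27%) and by 27 in both (0.876%). Thus 55.1% of the calls of library 1 and 69.2% of those of library 2 were called in the other. Across all 3082 genes, which are not independent replicates, the ratios of the libraries correlated at a Pearson r of 0.923 and a Spearman rho of 0.393. Among genes below 1.3 in both libraries Pearson's r was 0.433.

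**Figure D1:**
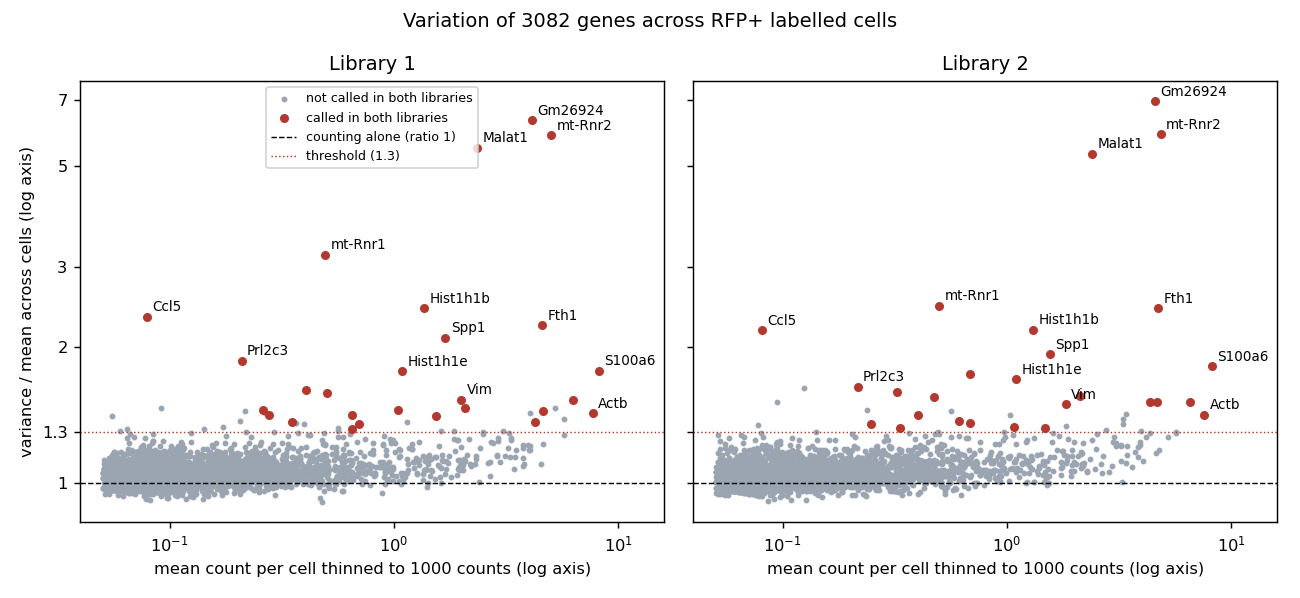
Variance divided by mean across cells (log axis) against the mean count per cell thinned to 1000 counts (log axis) for 3082 genes, library 1 left and library 2 right. Red points are the 27 genes at 1.3 or more in both libraries, and Gm26924, mt-Rnr2 and Malat1 stand above 5 in each while most genes lie near the dashed line at 1.

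The highest ratios belonged to a few RNAs that are not typical messengers. Gm26924 had ratios of 6.32 and 6.96, on means of 4.14 and 4.58 counts per thinned cell, and reached 58 and 62 of 1000 counts in single cells. mt-Rnr2, the large mitochondrial ribosomal RNA at chrM:1094-2675, had ratios of 5.85 and 5.87 and reached 54 and 67 counts. Malat1, a nuclear long non-coding RNA transcribed from chr19:5795690-5802672 (minus strand), had ratios of 5.49 and 5.33. No Malat1 count was found in 30.2% and 30.7% of cells, where counting alone would leave 9.57% and 9.14%. mt-Rnr1, the small mitochondrial ribosomal RNA, had ratios of 3.19 and 2.46. Among the messengers of the mitochondrial genome, mt-Nd1, a subunit of complex I, had ratios of 1.61 and 1.42, and mt-Cytb, of complex III, 1.58 and 1.55. The mt-Nd1 call was lost without the 5% of cells highest in mitochondrial share. In all, 4 of the 7 mitochondrially encoded rows tested were called in both libraries, against 0.876% of all genes tested. The summed count of these rows was lower in deeper cells, with r of -0.28 and -0.33 against log2 total counts, and the part of depth and cell quality in their variation was not tested. Places here and below are GRCm38 coordinates, from GENCODE M21 for genes.

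**Figure D2:**
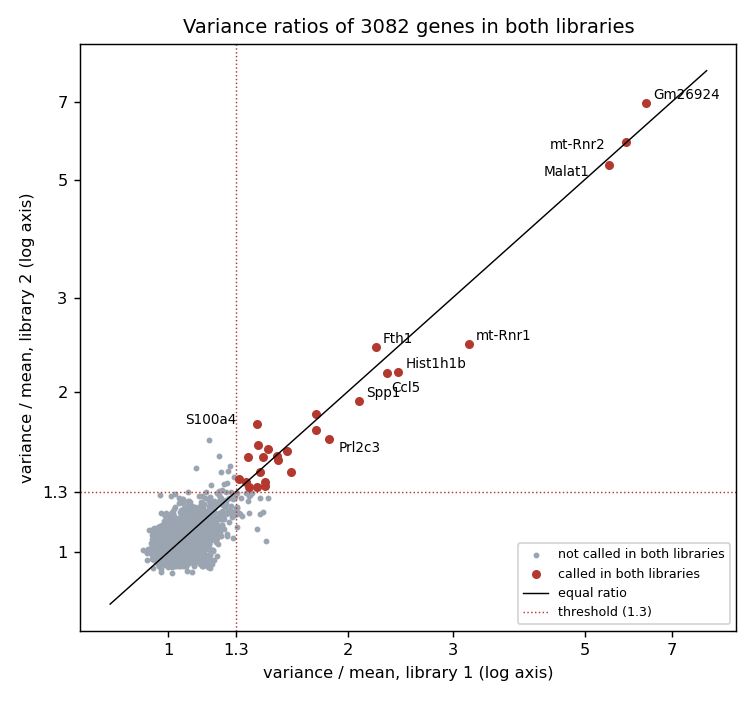
Variance divided by mean of 3082 genes in library 1 (horizontal, log axis) and library 2 (vertical, log axis), with the line of equal ratio and dotted lines at 1.3. The 27 red genes were picked for a ratio of at least 1.3 in both libraries, so part of their agreement is built in. Some of them lie off the line, such as mt-Rnr1 (3.19 and 2.46) and S100a4 (1.41 and 1.74). So do genes called in 1 library alone, such as Mgp (1.17 and 1.62). Genes below 1.3 in both libraries form a cloud, with a Pearson r of 0.433.

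Linker histones bind DNA between nucleosomes, and the clustered histone genes are transcribed mainly while DNA is copied. Hist1h1b, at chr13:21779883-21780625 (minus strand), had ratios of 2.43 and 2.18, with means of 1.37 and 1.31 counts and up to 17 and 15 counts in a cell. Hist1h1e, at chr13:23620629-23622558 (minus strand), had ratios of 1.77 and 1.70. Of the 7 clustered histone genes tested these were the 2 called in both libraries, against 0.876% of all genes tested. Hist1h1a (1.24 and 1.34) and Hist1h1d (1.19 and 1.17) were not. The end of the longest Hist1h1e transcript shares 99.1% of its 31-base words with Hist1h2be, so which of the 2 its reads came from is uncertain.

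Hist1h1b and Hist1h1e also varied together, with r across cells of 0.35 in library 1 and 0.34 in library 2, the highest of any pair of nuclear genes. A pair was called at r of at least 0.2 on log2(thinned count + 1), over 1545 and 1423 cells. The row Gm26924 varied with both, at 0.23 and 0.23 with Hist1h1b and 0.23 and 0.21 with Hist1h1e. The call of Gm26924 with Hist1h1e was lost among cells of 1000 to 2000 counts. Hist1h1d paired with Hist1h1b at 0.22 and 0.12, below the threshold in library 2. Because the rows Hist1h1b and Hist1h1e varied together, the 250 bases before the start of both genes are shown. They are from RefSeq (GRCm38.p6), 5′ to 3′ on the gene's strand. Counts of the Hist1h1e row may in part be those of Hist1h2be, as said above. The stretch before Hist1h1b is chr13:21780626-21780875 and that before Hist1h1e is chr13:23622559-23622808, both read on the minus strand. Capitals mark CCAAT, read on either strand, and AAACACA, the H1 box known from linker histone promoters.
Hist1h1b: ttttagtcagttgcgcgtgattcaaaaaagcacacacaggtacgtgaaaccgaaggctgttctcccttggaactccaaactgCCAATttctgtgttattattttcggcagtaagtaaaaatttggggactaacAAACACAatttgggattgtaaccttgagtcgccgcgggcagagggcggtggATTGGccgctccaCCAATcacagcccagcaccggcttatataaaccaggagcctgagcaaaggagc
Hist1h1e: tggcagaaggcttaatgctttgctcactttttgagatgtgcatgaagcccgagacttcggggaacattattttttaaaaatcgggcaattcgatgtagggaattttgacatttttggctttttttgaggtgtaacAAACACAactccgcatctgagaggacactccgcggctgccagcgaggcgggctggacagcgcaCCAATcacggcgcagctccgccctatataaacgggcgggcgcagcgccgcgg
AAACACA began 117 bases before the start of Hist1h1b and 115 before that of Hist1h1e, and a CCAAT began 53 and 52 bases before the starts. Hist1h1b held 2 more, at 168 and 66 bases, and 1 match to TTTGAA, a motif described further on. On either strand, AAACACA occurred in 6.25% and CCAAT in 33.8% of the 32851 promoter windows of this length. AAACACA was looked for after the pair had been seen, and a match describes the letters and shows no binding.

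Some called genes are products that tumour cells secrete or use to handle iron. Ccl5, a chemokine that draws T cells and monocytes (chr11:83525778-83530518), had the highest coefficient of variation beyond counting, 4.11 and 3.81, on means of only 0.079 and 0.0808 counts. Its ratios were 2.33 and 2.17. Of all Ccl5 counts, 95.1% and 93.0% fell in the 5% of cells with the most, and single cells held up to 9 and 8 counts. That share is high for sparse genes in any case, and Cldn3, called in neither library, gave 87.6% and 72.7%. Cells without a Ccl5 count made up 94.6% and 94.4%, against 92.4% and 92.2% if counts were spread evenly. No cell type that should lack Ccl5 was among these cells, so the share of free RNA in droplets was not tested. Spp1, osteopontin, a secreted matrix phosphoprotein, had ratios of 2.09 and 1.93, and Fth1, ferritin heavy chain, 2.23 and 2.43. Prl2c3, of the prolactin family, had ratios of 1.87 and 1.63 and shares 92.8% of its end with Prl2c2, so the gene is uncertain.

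Of 19 tested genes of the mesenchymal list 3 were called in both libraries, S100a6, S100a4 and Vim, against 0.876% of all genes tested. The list's median ratio was 1.25 and 1.19, against 1.05 over all genes in each library. S100a6 had ratios of 1.77 and 1.81 around means of 8.19 and 8.18 counts. S100a4, its neighbour on chromosome 3 (S100a4 at chr3:90603771-90606045, S100a6 at chr3:90612882-90624181), had ratios of 1.41 and 1.74 around means of 0.649 and 0.682. It is the gene whose promoter drives Cre in this line, and 58.1% of the words at its end are shared with the gene model Gm42674. Vim, the intermediate filament protein vimentin (chr2:13573927-13582826), had ratios of 1.53 and 1.49. No Vim count was left in 21% and 22.8% of thinned cells, where counting alone would leave 13.6% and 16%. Tpm1 (1.43 and 1.26) was called in library 1 alone.

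Among epithelial genes 1 of 17 tested members was called in both libraries, against 0.876% of all genes tested. It was Wfdc2, with ratios of 1.45 and 1.33. That call was lost, leaving 0 of 17, with each ratio divided by the median of genes of like mean, and also without the 5% of cells of most counts and among cells of 1000 to 2000 counts. Epcam (1.29 and 1.18) was called in neither, and Krt18 (1.23 and 1.42) in library 2 alone. Krt7, another simple-epithelial keratin, stood at 1.22 and 1.25, Krt8 at 1.17 and 1.2 and Cldn3 at 1.12 and 1.09. The sum of its thinned counts, 5.35 and 5.49 per cell, had ratios of 1.87 and 2.08 and a coefficient of variation beyond counting of 0.403 and 0.443. Ratios of sums grow with the counts summed, so they are not set against those of single genes. Neither reporter row was called, CUSTOM_GFP standing at 1.13 and 1.05 and CUSTOM_RFP at 1.05 and 1.25.

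Epithelial and mesenchymal genes varied against each other. The lowest r of any pair in library 1 was that of Vim and Wfdc2, at -0.19 and -0.15, followed by Vim and Epcam at -0.17 and -0.17. In library 2 the lowest was that of Ncl and S100a6, at -0.195, which does not join these 2 groups of genes. With the keratins Vim stood closer to none, at -0.05 and -0.09 for Krt18 and -0.08 and -0.08 for Krt8. No pair reached -0.2 in either library, so these values are descriptions of weak relations in sparse counts. Vim and S100a6 paired at 0.21 and 0.18, Vim and Fth1 at 0.20 and 0.18, Vim and S100a4 at 0.20 and 0.16, and S100a4 and S100a6 at 0.16 and 0.21. Fth1 and S100a6 were called in both libraries, at 0.24 and 0.26, a call lost in a second random thinning. On the epithelial side Epcam and Wfdc2 stood at 0.16 and 0.15, Krt18 and Wfdc2 at 0.10 and 0.14, and Krt18 and Krt8 at 0.08 and 0.14.

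Over whole lists, the epithelial and the mesenchymal sum correlated across cells at -0.24 in library 1 and -0.28 in library 2. Among cells of at least 2000 counts, 366 and 333 in number and thinned to 2000, the values were -0.40 and -0.48. Given depth, mitochondrial share and ribosomal protein share, the partial r was -0.24 and -0.28. When the cells of library 1 were ordered by their mesenchymal sum and cut into 5 groups of 309 cells, the mean epithelial count was 6.41, 5.85, 5.46, 4.78 and 4.27 of 1000 from the lowest group to the highest. Library 2 gave 6.57, 6.25, 5.65, 5.02 and 3.93 in groups of 284 or 285 cells. Each step was downward in both libraries. The SD over cells within a group was 2.71 to 3.33 in library 1 and 2.77 to 3.57 in library 2, larger than the step from group to group, so the distributions overlapped widely. Even the highest group kept 2.23 and 2.0 counts of the 5 markers per cell, against 3.54 and 3.81 in the lowest, and Vim went from 0.968 and 0.909 to 3.12 and 2.87. The median total count was 1545 and 1597 in the lowest group and 1345 and 1425 in the highest, and its part in the relation was not tested beyond the partial r. From the lowest group to the highest CUSTOM_GFP stood at 0.579, 0.612, 0.647, 0.686 and 0.683 in library 1. In library 2 it stood at 0.467, 0.618, 0.558, 0.669 and 0.577. CUSTOM_RFP stood at 0.120, 0.133, 0.136, 0.133 and 0.146 in library 1. In library 2 it stood at 0.102, 0.154, 0.151, 0.169 and 0.134. Neither reporter row rose at every step in either library.

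**Figure D3:**
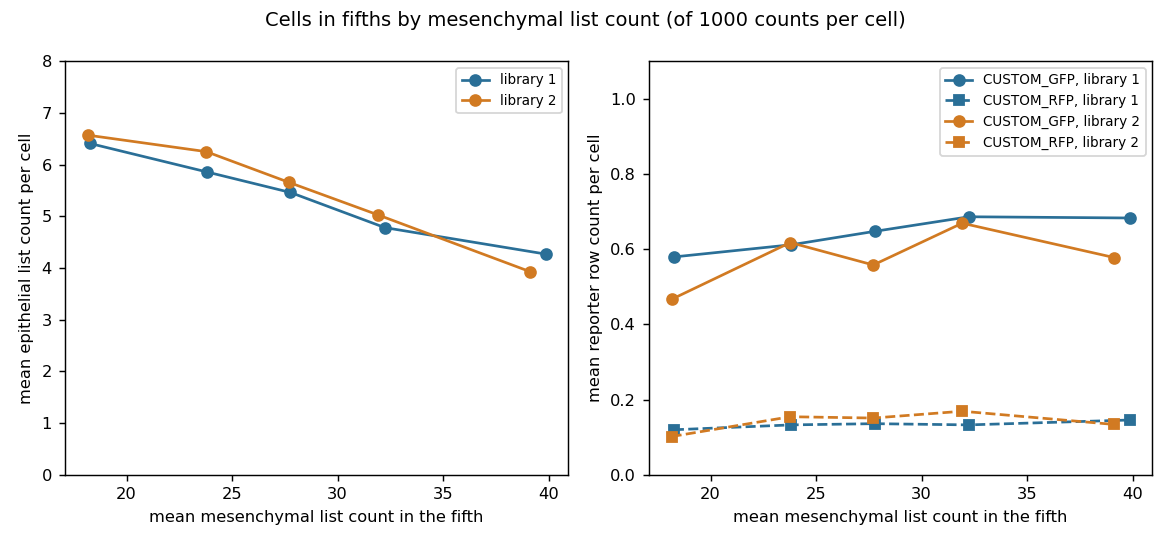
Cells of each library in 5 groups by mesenchymal list count per 1000 counts (horizontal axis, mean of the group), with the mean epithelial list count per cell (left) and the mean reporter row counts (right). The epithelial mean goes from 6.41 to 4.27 in library 1 and from 6.57 to 3.93 in library 2, while the reporter rows keep no steady order from group to group in library 2.

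Genes of chromosome segregation formed a further group. Of 61 tested G2/M genes 5 were called in both libraries, against 0.876% of all genes, but 1 of 61, Cenpf, with each ratio divided by the median of genes of like mean. They were Cenpe (1.45 and 1.35) and Cenpf (1.41 and 1.59), proteins of the kinetochore, Mki67 (1.37 and 1.32), which coats mitotic chromosomes, Arl6ip1 (1.35 and 1.36), a membrane-shaping protein of the endoplasmic reticulum, and Top2a (1.32 and 1.37), the topoisomerase that untangles chromosomes. The calls of Cenpe and Top2a were lost in a second random thinning and without the 5% of cells of most counts, that of Mki67 among cells of at least 2000 counts and that of Arl6ip1 among cells of 1000 to 2000. No pair of this group reached 0.2. Arl6ip1 and Prc1, a protein of the spindle midzone, stood at 0.16 and 0.15, and Cenpf and Prc1 at 0.17 and 0.13. Of 39 tested G1/S genes none was called in either library, a count near the share of 0.876% called in both over all genes. The highest in library 1 was Atad2, at 1.18 there and 1.11 in library 2. The coefficient of variation beyond counting was 0.338 and 0.330 for the G2/M sum and 0.209 and 0.245 for the G1/S sum.

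CCAAT and TTTGAA are letters known from late cell-cycle promoters. Among the mitotic genes looked up Ube2c held both, and its 250 bases before the start (chr2:164769679-164769928, plus strand) are shown, a choice made after the matches were seen. Ube2c was not called variable in either library, and it stood with Arl6ip1 at r of 0.13 and 0.11, below the threshold. Capitals mark CCAAT and TTTGAA, the cell cycle genes homology region, on either strand.
Ube2c: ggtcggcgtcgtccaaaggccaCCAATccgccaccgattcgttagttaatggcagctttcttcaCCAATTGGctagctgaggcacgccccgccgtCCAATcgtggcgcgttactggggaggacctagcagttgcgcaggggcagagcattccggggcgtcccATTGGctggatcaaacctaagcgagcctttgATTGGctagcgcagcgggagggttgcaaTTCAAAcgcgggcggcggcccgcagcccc
CCAAT occurred 6 times, with a pair of matches overlapping on opposite strands, and TTTGAA once, 29 bases before the start. This start is from RefSeq. GENCODE places the start of Ube2c at 164769898, within the window, and the TTTGAA match lies past it. TTTGAA occurred in 16% of all windows. Prc1, Cenpf and Arl6ip1 held 1, 2 and 2 CCAAT matches and no TTTGAA. The third motif searched, TGANTCA, the AP-1 element, occurred in 6.75% of all windows and was found before Hist1h1b and Hspa5 only, of the 16 genes looked up, all of which matched the RefSeq table. TTTGAA also occurred once before Fth1, at 144 bases, and once before Epcam, at 98 bases, so it was not confined to mitotic genes. Vim held 2 CCAAT matches and S100a6 1, while S100a4, Wfdc2, Krt18 and Krt8 held none of the motifs searched.

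Chaperones of the endoplasmic reticulum varied together weakly, and no pair of them was called in both libraries. Hsp90b1, at chr10:86690209-86705509 (minus strand), had ratios of 1.47 and 1.56, and Hspa5, the chaperone BiP at chr2:34771970-34777547, 1.41 and 1.33, the latter call being lost among cells of 1000 to 2000 counts. These were 2 of the 23 tested genes of the unfolded protein list, against 0.876% of all genes tested, and both calls were lost with each ratio divided by the median of genes of like mean, leaving 0 of 23. Calr (1.31 and 1.29) was called in library 1 alone. Hsp90b1 and Hspa5 stood at r of 0.21 and 0.18, below the threshold in library 2. Hsp90b1 and Calr, at 0.18 and 0.19, and Hspa5 and Calr, at 0.17 and 0.17, were below it in both libraries. Such values were not confined to chaperones, as Hsp90b1 stood with Malat1 at 0.22 and 0.16 and with the integrin Itgb1 at 0.16 and 0.15. The 250 bases before the starts of Hspa5 and Hsp90b1 are shown because both hold the endoplasmic reticulum stress element, known from promoters of such chaperones. Capitals mark the element, CCAAT and CCACG with 9 bases between them (it holds a CCAAT match), on either strand, for Hspa5 (chr2:34771840-34772089, plus strand) and Hsp90b1 (chr10:86705445-86705694, minus strand).
Hspa5: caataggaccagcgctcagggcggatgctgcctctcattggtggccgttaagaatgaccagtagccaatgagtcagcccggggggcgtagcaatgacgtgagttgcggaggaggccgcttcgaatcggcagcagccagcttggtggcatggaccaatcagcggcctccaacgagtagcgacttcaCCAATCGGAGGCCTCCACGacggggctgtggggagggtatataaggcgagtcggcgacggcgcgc
Hsp90b1: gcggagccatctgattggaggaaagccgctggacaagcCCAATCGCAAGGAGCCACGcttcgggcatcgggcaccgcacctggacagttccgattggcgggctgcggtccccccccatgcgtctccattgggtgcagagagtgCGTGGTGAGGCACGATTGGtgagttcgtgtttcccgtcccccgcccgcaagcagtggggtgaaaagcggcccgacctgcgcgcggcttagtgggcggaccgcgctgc
Hspa5 had 1 match, 65 bases before the start, and Hsp90b1 had 2, at 212 and 107 bases. These starts are from RefSeq and differ from the GENCODE places given above. Each window therefore overlaps its gene as placed there, and the Hspa5 match lies within that overlap. The element occurred in 37 of 32851 windows, or 0.113%. It was searched after the pair had been seen, and a match is a description.

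Of 78 ribosomal protein genes tested 2, Rplp1 (1.52 and 1.51) and Rps12 (1.36 and 1.51), were called in both libraries, against 0.876% of all genes tested. Neither was called with each ratio divided by the median of genes of like mean. The list's median ratio was 1.1 and 1.11, against 1.05 over all genes in each library. Rplp1 and Rps12 have pseudogene copies that share 72.5% and 97% of their ends. The sum of the list, 179 and 183 counts per thinned cell, had a coefficient of variation beyond counting of 0.184 and 0.188. Rplp1 and Rps12 paired at 0.23 and 0.21, Rpl32 and Rps12 at 0.22 and 0.24, and Rpl32 and Rps15a at 0.20 and 0.22. In a second random thinning both Rpl32 pairs fell below 0.2 in at least 1 library, and Rplp1 with Rps12 did so without the 5% of cells highest in mitochondrial share. The sum varied with that of nuclear oxidative phosphorylation genes, at r of 0.39 and 0.45, and against that of unfolded protein genes, at -0.39 and -0.35. No oxidative phosphorylation gene of 69 tested was called in both libraries, a count near the 0.876% over all genes. The longest annotated transcripts of the ribosomal protein list had a median of 942 bases and those of oxidative phosphorylation 918, against 2380 for the unfolded protein list and 2624 for all genes tested, and the part of transcript length was not tested.

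Ncl, a nucleolar protein of ribosome assembly (chr1:86344719-86359400, minus strand), was the one gene called of 54 tested in the ribosome biogenesis list, with ratios of 1.45 and 1.51. That share is near the 0.876% over all genes, and the call was lost with each ratio divided by the median of genes of like mean. Ncl and S100a6 stood at r of -0.16 and -0.19. Summed, the mesenchymal list stood against ribosome biogenesis at -0.25 and -0.24 and against heat shock genes at -0.21 and -0.22, while ribosome biogenesis and heat shock varied together at 0.18 and 0.19. The mesenchymal list varied with the glutathione and NRF2 list at 0.19 and 0.19, a list that holds Fth1. Over the 190 pairs of 20 lists the median r was 0.0020 and -0.0058, 163 pairs had the same sign in both libraries, and the values of the libraries correlated at 0.926, with pairs sharing lists and cells.

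Over all genes, pairs that varied together were few. Among 1795 genes with a mean of at least 0.1 counts, 26 of 1610115 pairs reached 0.2 in library 1 (0.00161%), 23 in library 2 (0.00143%) and 16 in both (0.000994%). The median r was -0.00060 in each library, and 99% of pairs lay below 0.064 and 0.0668. Of the 16, 6 joined mitochondrially encoded rows, led by mt-Rnr2 and mt-Rnr1 at 0.43 and 0.41, and 3 joined ribosomal proteins. Malat1 and mt-Rnr2 paired at 0.22 and 0.20, a call lost in cells of at least 2000 counts and without the 5% of cells highest in mitochondrial share. Tpm3 and Tpm3-rs7 (0.25 and 0.21), which share 70.9% of the words at the Tpm3 end, and Wdr89 and Rplp2 (0.22 and 0.22), which share 43.4% of those at the Rplp2 end, are uncertain, because reads of one could be counted for the other. The remaining 4 were Hist1h1b with Hist1h1e, each of these rows with Gm26924, and Fth1 with S100a6. The 100 pairs highest in library 1 had a median r of 0.173 there and 0.154 in library 2, with all 100 above 0. The 100 lowest had medians of -0.122 and -0.0827, with 98 below 0 in library 2.

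**Figure D4:**
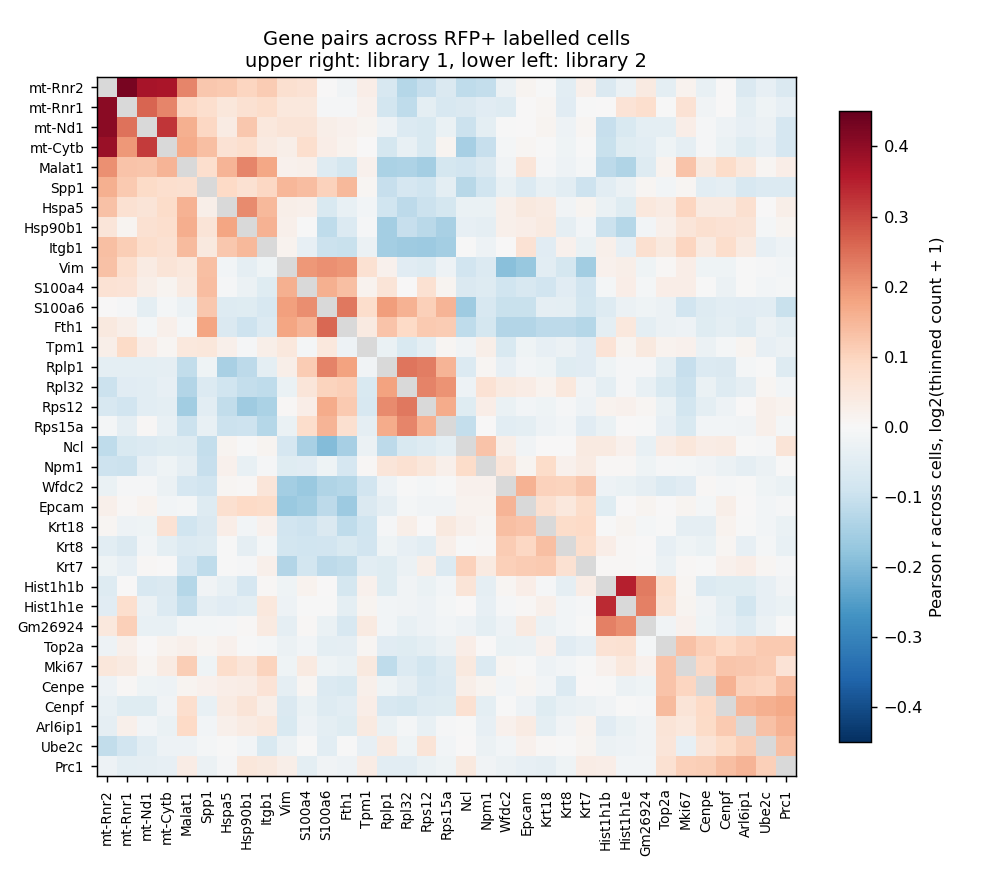
Pearson r across cells of log2(thinned count + 1) for 35 genes named in the text, library 1 above the diagonal and library 2 below it, red for positive and blue for negative values. Blocks of mitochondrial, mesenchymal, ribosomal protein, epithelial, histone and mitotic genes appear on both sides. A blue block joins Vim, S100a4, S100a6 and Fth1 to Wfdc2, Epcam and keratins, with pale cells such as Vim with Krt18 (-0.05 and -0.09). Another joins Malat1, Hspa5, Hsp90b1 and Itgb1 to Rplp1, Rpl32, Rps12 and Rps15a, with Itgb1 and Rps12 at -0.17 and -0.14.

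Principal components of the 500 genes with the highest ratios in library 1, fitted in each library on its own, were matched by their loadings. Component 1 held 1.60% and 1.67% of the variance, with loadings that correlated at 0.939 between libraries. Its high end held Rplp1, Rpl32, Rps12 and S100a6, and its low end Itgb1, an integrin, Hsp90b1, Malat1, Hspa5 and Mki67. Its score followed the ribosomal protein share of a cell at r of 0.87 and 0.88. Ribosomal protein genes were among the genes fitted, so this relation is partly built in. Loadings fell with transcript length, at a rank correlation of -0.65 and -0.62 over the 480 of 500 genes of known length, and the part of length was not tested. Component 2, with 0.984% and 0.892% of the variance and loadings correlated at 0.872, set mt-Rnr2, mt-Cytb, Spp1, Malat1 and Vim against Ncl, Npm1, Ybx1 and Ybx3. Its score followed the mitochondrial share at 0.49 and 0.51, with mitochondrially encoded rows among the genes fitted, and log2 total counts at -0.18 and -0.20.

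Component 3, with 0.672% and 0.668% of the variance, held epithelial and mesenchymal genes at opposite ends. Vim, Fth1, S100a4, Sparc, a matrix glycoprotein, Tpm1 and S100a6 loaded at one end. Wfdc2, Epcam, Krt7, Ly6a, Lgals3, Krt8 and Krt18 loaded at the other. Loadings correlated at 0.710 between libraries, and at 0.540 without the 5% of cells of most counts. In the full set 9 of the 10 genes at the epithelial end of library 1 and 7 of the 10 at the mesenchymal end were among the first 10 of library 2, where Hist1h1b, at rank 10 of the latter end in library 1, stood at rank 213. The score was nearly unrelated to depth (r of -0.012 and -0.0050) and to the mitochondrial share (0.0080 and -0.034). Component 4, with 0.609% and 0.579% and loadings correlated at 0.624, was described after its genes were seen. It set Arl6ip1, Nusap1, Cenpf, Hmmr and Ube2c, genes of mitosis, against Gm26924 and the rows Hist1h1e, Hist1h1b and Hist1h1d. The latter end also held mt-Rnr2 and mt-Rnr1 in library 1, at ranks 119 and 11 in library 2. Of its first 10 genes in library 1, 5 were among the first 10 of library 2, against 8 at the mitotic end.

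**Figure D5:**
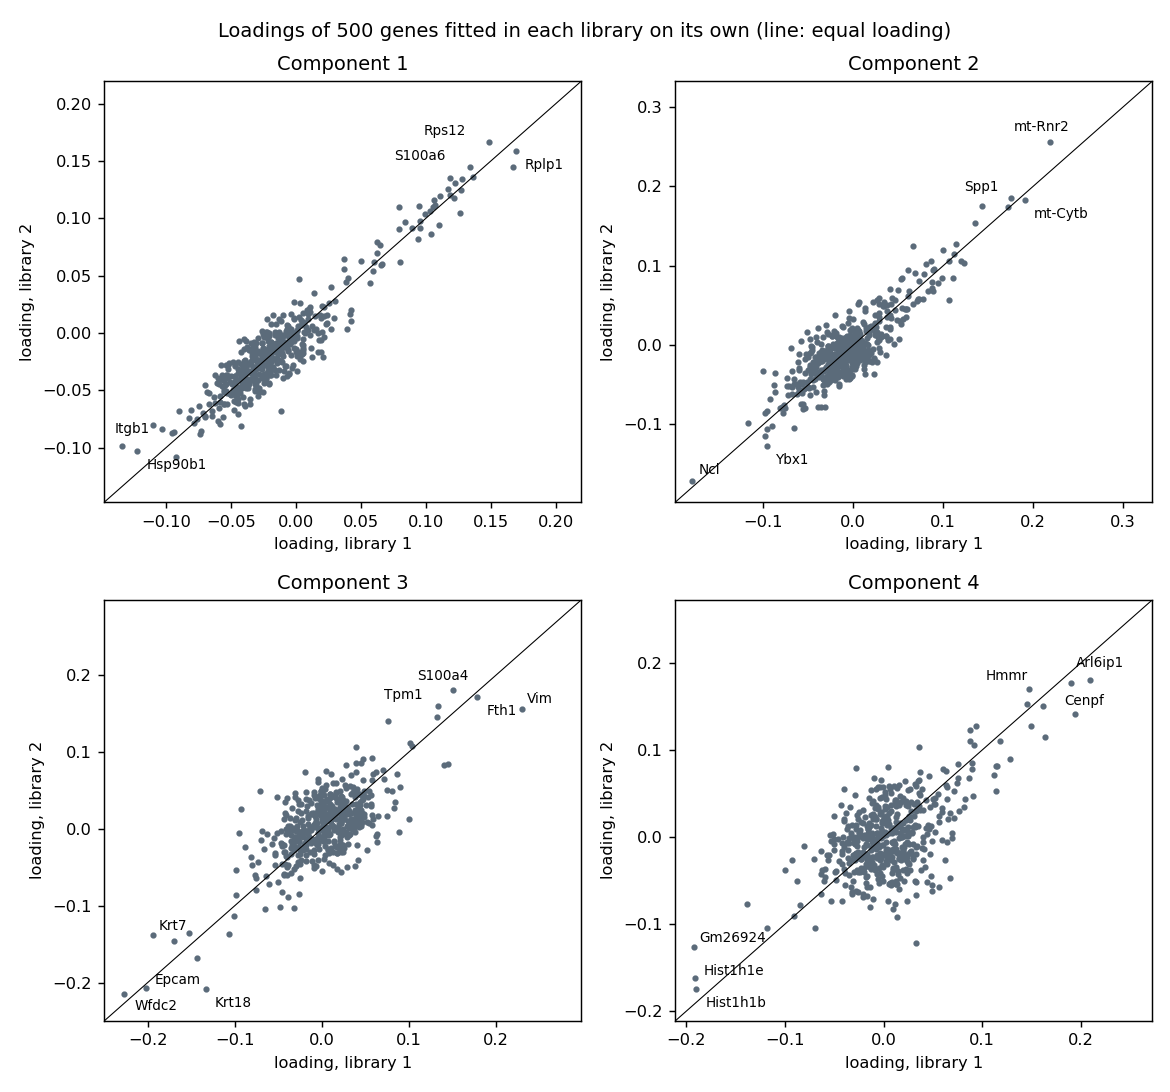
Gene loadings of components 1 to 4 in library 1 (horizontal) and library 2 (vertical) for 500 genes, with the line of equal loading. Points follow the line most closely for component 1 (r of 0.939) and least for component 4 (0.624), where the genes named in the panel keep their sign in both libraries.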

How the data were processed

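Per the labels' protocols, sorted Tri-PyMT cells went through a Drop-seq device, and Nextera libraries were read on a HiSeq machine. The authors deposited raw counts per gene and cell, and values are whole numbers. Per the submitters' processing notes, GRCm38 was the genome build. Not given in the sources used here: aligner, counter, choice of cells, and collapsing of molecular identifiers. Values are therefore called counts, and intervals cover counting error only.

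Column names gave 2 libraries, each with its 2 lanes pooled. Of 16647 gene rows, 2108 had no count in member cells, 23 had names like dates and 1 name was repeated and kept apart. Library totals were 2677026 and 2487405 counts. No doublet caller was used, and the share of doublets is unknown. Setting aside the 5% of cells with the most counts was an alternative.

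Cells were thinned without replacement to 1000 counts (Python 3.11.15, numpy 2.4.6, scipy 1.17.1, figures with matplotlib 3.10.9). Variance ratios, Pearson r on log2(count + 1), sums over 20 gene lists and principal components on z-scored values were computed per library, as descriptions without p-values. The procedure was tested on simulated counts with known variable genes. Sequence sharing was the share of 31-base words in the last 500 bases of a gene's longest transcript found in another gene (GENCODE M21). Motifs came from RefSeq promoter windows. Named were the markers, Vim, S100a4, the reporters, the 15 most abundant genes, the top called genes, the highest and lowest pairs and loadings, and the 4 most variable members of each list. Other genes named were chosen after their values were seen. The members and lists were chosen with earlier results of these data known.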

Additional observations from a re-analysis of the deposited data

How the results depend on the processing

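No paired analysis was possible because only 1 population is described. The count of 27 genes called in both libraries became 74 at a ratio of 1.2 and 13 at 1.5. It was 16 with each ratio divided by the median of genes of like mean, all of them among the 27. Rplp1, Rps12, Hsp90b1, Hspa5, Cenpe, Top2a, Mki67, Arl6ip1, Wfdc2, Ncl and Actb were not called then. It was 100 on residuals of all counts without thinning and 99 among cells of at least 2000 counts, and either library alone gave 39 to 49. A second thinning called 31 genes, 25 of them among the 27. The Spearman rho of the ratios was 0.303 with a minimum mean of 0.02, 0.477 with 0.1, 0.525 without thinning, 0.238 among cells of at least 2000 counts and 0.339 among cells of 1000 to 2000. The 16 pairs became 58 at r of 0.15 and 5 at 0.3, 198 without thinning, 185 among cells of at least 2000 counts and 6 without mitochondrially encoded rows, Malat1 and Gm26924, and either library alone gave 23 to 26. Among the deeper cells r was 0.498 for oxidative phosphorylation with ribosomal proteins, -0.439 for epithelial with mesenchymal and -0.343 for mesenchymal with ribosome biogenesis. Each library alone gave 0.390 to 0.447, -0.283 to -0.240 and -0.248 to -0.242 for these, and -0.395 to -0.351 for unfolded protein genes with ribosomal proteins. Component 3 loadings correlated at 0.657 with 1000 genes and 0.540 without the 5% of cells of most counts. With thinned counts 3 genes were past 1.5-fold. None of these values changed sign under the alternatives tried. The cause of the changes was not tested, apart from the thresholds themselves. The alternatives without mitochondrial rows, without the 5% of cells highest in mitochondrial share, the partial r and 2 of the motifs were chosen after seeing the data. Depth was limiting: genes under 0.05 counts per thinned cell were not examined.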

Other observations

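Lysosome and cathepsin genes varied with unfolded protein genes at r of 0.23 and 0.18 and with interferon response genes at 0.14 and 0.16. Cd63, a tetraspanin of late endosomes, had ratios of 1.29 and 1.28, and Ctsl, a cathepsin, 1.25 and 1.25. Chemokine and cytokine genes varied with the mesenchymal list at 0.15 and 0.10. Ifitm3, an antiviral membrane protein, stood at 1.16 and 1.17. None of the 13 lysosomal, 7 interferon response, 12 glycolysis and hypoxia, 5 cholesterol synthesis and 8 p53 target genes tested was called, which at 0.876% of all genes called says nothing particular about lists of these sizes.

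Calls made in 1 library alone numbered 34. Among them were Mgp, a matrix inhibitor of calcification, with ratios of 1.17 and 1.62, Cryab, a small heat shock protein, with 1.12 and 1.44, and Akap9, a scaffold of the centrosome and Golgi, with 1.22 and 1.51. In library 1 alone Inhba, an activin subunit, had 1.36 and 1.25 and Cyr61, a matrix-associated signalling protein, 1.37 and 1.18. These genes were picked after their values were seen, and the difference between libraries was not tested.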
